A study of Mus musculus with 8 samples.

Results

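The eosinophil-associated ribonucleases (Ear genes) were followed in mouse lung after lipopolysaccharide (LPS). Members were taken by name, as every array probe annotated Ear1, Ear2, Ear3, Ear4, Ear5, Ear6, Ear7, Ear10, Ear11 or Ear12. Of these 10 names, 9 had a probe, each with 1 probe, and Ear3 had none. The array held 55660 usable probes for 36153 gene names. The family was picked on the signals of Ear1 and Ear2, which were lower in knockout lungs in these same data, so the differences between genotypes are given as descriptions. Counts of Ear probes past a threshold are printed beside the share of all probes, and support nothing.

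The samples were 8 whole lungs of C57BL/6 mice, 4 wild-type and 4 with a lung-specific knockout of GGPPS1 (gene symbol Ggps1), an enzyme that makes the lipid geranylgeranyl pyrophosphate. All 8 mice had received LPS for 12 h, so both groups carry that treatment and mice without it were not analysed here. The driver of the lung-specific deletion, and the cells in which it acts, are not named in the labels. The series title places the work in acute lung injury and the NLRP3 inflammasome, and each lung was measured on its own one-colour Agilent array.

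Ear genes encode small secreted proteins of the ribonuclease A superfamily, which cut RNA and lie in a tightly packed gene cluster that has expanded in rodents. They are named for the granules of eosinophils, white cells of allergy and parasite defence, and correspond to the human eosinophil-derived neurotoxin and eosinophil cationic protein. In mouse lung, transcripts of some members are also abundant in alveolar macrophages, the resident phagocytes of the air spaces. The members are close copies of each other, so probes of 60 bases may bind more than 1 transcript.

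The probe sequences are shown because members of the family are close copies. Capitals mark the longest exact run that a probe shares with another Ear probe, written 5′ to 3′.
Ear1 probe: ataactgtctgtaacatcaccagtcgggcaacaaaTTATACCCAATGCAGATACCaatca
Ear7 probe: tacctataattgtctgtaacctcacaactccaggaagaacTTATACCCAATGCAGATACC
Ear10 probe: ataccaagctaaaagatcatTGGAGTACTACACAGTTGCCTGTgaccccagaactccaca
Ear12 probe: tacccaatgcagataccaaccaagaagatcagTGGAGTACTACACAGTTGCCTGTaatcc
Ear4 probe: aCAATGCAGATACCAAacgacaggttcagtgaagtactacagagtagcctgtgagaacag
Ear5 probe: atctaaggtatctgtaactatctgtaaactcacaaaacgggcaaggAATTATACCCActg
Run shared by the Ear2 and Ear6 probes: GCTGAATAGATCTTTTCTAATTA
The Ear10 and Ear12 probes shared 23 bases, as did the Ear2 and Ear6 probes. The Ear1 probe shared 20 bases with Ear7, 19 with Ear12 and 15 with Ear4. The Ear5 probe shared at most 11 bases with another Ear probe, and the Ear11 probe at most 7. None of the marked runs of 12 or more bases was found in any array probe outside the family. These runs compare probes with probes and not with transcripts, so they do not show which members a probe reads, and binding to a paralogous transcript was not tested.

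All 9 probes map to chromosome 14, in build mm9 of the file headers, in 2 blocks 7101253 bases apart. In the first block the Ear1 probe lies at chr14:44396709-44396768 (minus strand), Ear10 at chr14:44500615-44500674 (minus), Ear12 at chr14:44680899-44680958 (plus) and Ear2 at chr14:44681119-44681178 (plus). In the second block Ear5 lies at chr14:51782432-51782491 (plus), Ear4 at chr14:51823711-51823770 (plus), Ear11 at chr14:51875064-51875123 (minus), Ear7 at chr14:52473974-52474033 (plus) and Ear6 at chr14:52474253-52474312 (plus). The Ear12 probe ended 160 bases before the Ear2 probe on the same strand, and the pair spanned 280 bases. The Ear7 and Ear6 probes were 219 bases apart and spanned 339. For comparison, the whole Ear2 gene is 878 bases long and the Ear6 gene 876 in the RefSeq annotation of GRCm38.p6. Each pair thus fits within the length of 1 such gene, so the Ear12 and Ear2 probes may read the same gene, as may Ear7 and Ear6, and the 9 probes are not 9 separate measurements. In the same RefSeq table Ear11 is now Rnase2a and Ear5 is now Rnase2b. Ear3, Ear4, Ear7 and Ear12 are not entries of that table. The files list the Ear2 probe under transcripts of both Ear2 and Ear1, and 1 of the 2 transcripts of the Ear4 probe is now named Ear14. Exon, intron and UTR positions of the probes were not analysed here.

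Signal is given as the log2 of the processed signal relative to the 75th percentile of its array. A level compares lungs for the same probe and does not rank probes against each other. A probe was tested if it was well above background on at least 3 of the 4 arrays of a group, which 33866 probes and 7 of the 9 Ear probes met. The Ear4 and Ear5 probes were not well above background on any of the 8 arrays. All 7 tested probes had a lower mean in knockout lungs, with a median difference of -1.0 log2 units, against a median of -0.03 over all tested probes, of which 54.8% had a lower knockout mean. For 6 of the 7, each of the 4 knockout lungs lay below each of the 4 wild-type lungs, a separation found in 9.24% of all tested probes. With limma and Benjamini-Hochberg adjustment over all 33866 probes, 0 of the 7 passed 0.05, where 0.065% of all probes passed in either direction. At an unadjusted p under 0.05 it was 6 of 7, beside 13.4% of all probes that were lower at that level. The rule chose the family on this contrast, so nothing is read from these counts, and probes such as Ear2 and Ear12 may count the same transcript more than once.

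Ear1, which is highly similar to Ear2, had log2 relative signals of 2.97, 2.87, 2.60 and 2.60 in wild-type lungs. The knockout lungs read 1.44, 1.98, 1.92 and 1.25. The groups did not overlap, with 0.62 log2 units between the lowest wild-type and the highest knockout lung. The wild-type mean was 2.76 ± 0.187 (SD, n = 4) and the knockout mean 1.64 ± 0.358 (SD, n = 4). The difference, knockout minus wild-type, was -1.12 ± 0.184 log2 units (SE from limma), or 2.17-fold lower in the knockout.

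Ear2 encodes a secreted eosinophil ribonuclease and is widely used as a transcript marker of alveolar macrophages. Its probe read 4.78, 4.76, 4.39 and 4.67 in wild-type lungs and 3.41, 3.93, 3.96 and 3.30 in knockout lungs. Knockout lungs 1 and 4 were the lowest, as they were for Ear1, and the groups were 0.43 apart. The means were 4.65 ± 0.18 and 3.65 ± 0.346 (SD, n = 4 each), a difference of -1.0 ± 0.179 (SE), 2.0-fold.

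Ear12, whose probe sits beside that of Ear2, read 3.18, 3.11, 2.85 and 3.38 in wild-type and 1.62, 2.31, 2.15 and 1.55 in knockout lungs. Its difference of -1.22 ± 0.198 (SE) was the largest in size of the 7, a 2.33-fold lower signal, and the groups were 0.54 apart. Among all 24464 tested genes, 0.634% had a difference at or below that of Ear12. The differences of Ear1, Ear2 and Ear12 were apart from each other by little more than their SE.

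Ear10, the closest neighbour of Ear1 on the minus strand, read 3.24, 3.05, 2.85 and 2.38 in wild-type lungs. Its knockout values were 1.76, 2.30, 2.17 and 1.62. Wild-type lung 4 was low for this probe and came within 0.08 of knockout lung 2. The difference was -0.92 ± 0.22 (SE), or 1.89-fold.

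Ear11 (Rnase2a), the member with the shortest run in common with the other probes, read 3.96, 3.76, 3.54 and 3.60 in wild-type lungs. The knockout lungs read 2.51, 3.09, 2.97 and 2.58. The groups were 0.45 apart, and the difference was -0.93 ± 0.161 (SE), or 1.9-fold.

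Ear6 read -0.55, -0.50, -1.15 and -0.63 in wild-type lungs and -1.68, -1.54, -2.43 and -1.23 in knockout lungs. The lowest wild-type and highest knockout lungs were 0.08 apart. The difference of -1.02 ± 0.263 (SE) was as large as that of Ear2, but the order of the lungs was not the same: knockout lung 4 was the highest for Ear6 and knockout lung 3 the lowest.

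The Ear7 probe was well above background on 3 wild-type and 3 knockout arrays and did not separate the groups. It read -3.08, -2.85, -3.62 and -6.14 in wild-type lungs and -3.44, -4.26, -6.50 and -3.82 in knockout lungs. Wild-type lung 4 and knockout lung 3 were not well above background. The difference was -0.58 ± 0.882 (SE), smaller than its own error, and became 0.08 without knockout lung 3.

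Ear4 and Ear5 gave no usable level in either genotype. Ear4 ranged from -7.73 to -6.90 in wild-type and from -7.21 to -6.95 in knockout lungs, and Ear5 from -7.49 to -5.88 and from -7.09 to -6.73. These values are not above background and no fold is given. No Ear probe was saturated on any array.

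**Figure D1:**
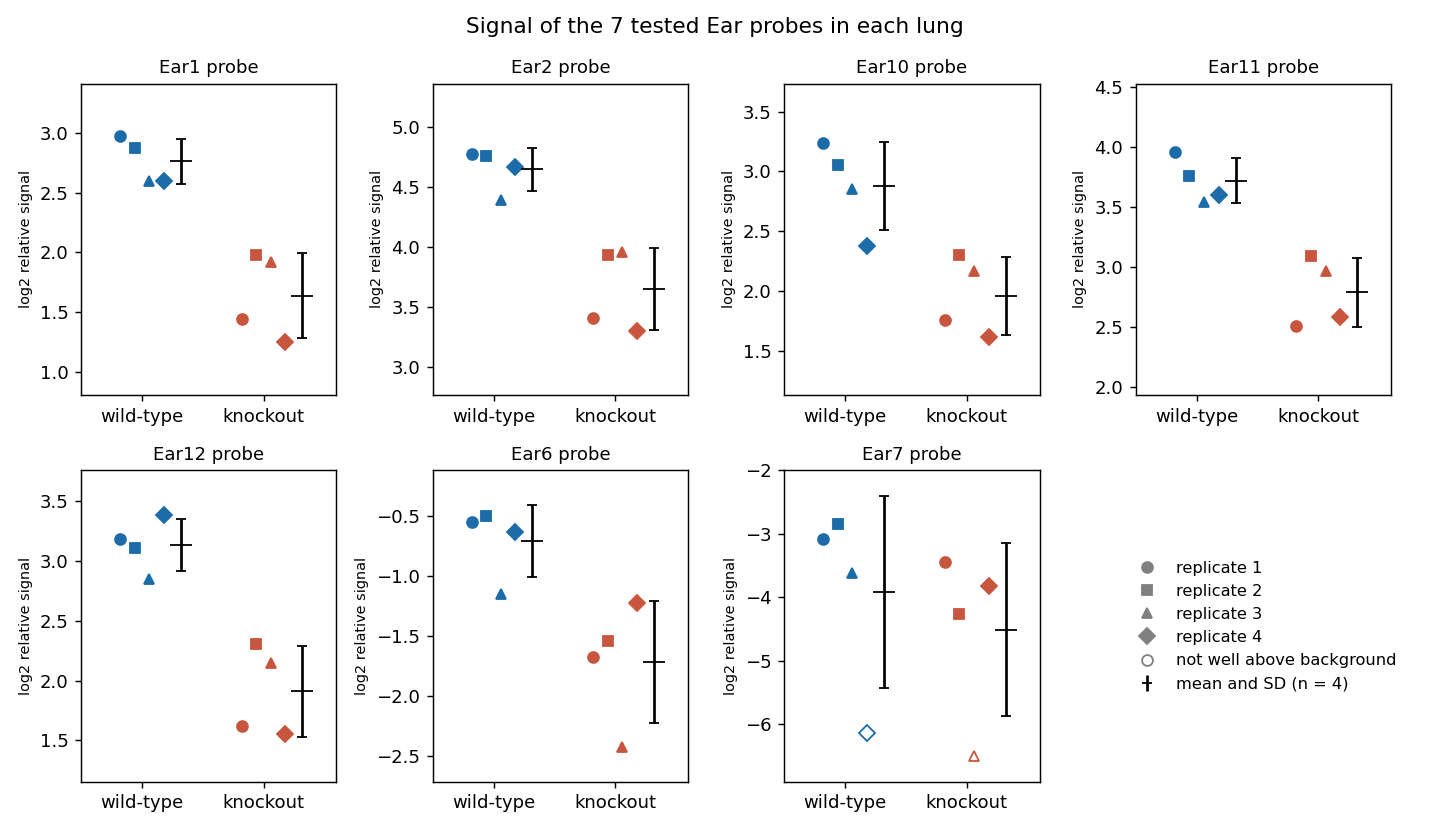
Log2 signal relative to the array's 75th percentile for each tested Ear probe, with 1 point per lung, the mean and SD beside each group, and open symbols for values not well above background. Knockout lungs lie below all wild-type lungs for Ear1, Ear2, Ear10, Ear11, Ear12 and Ear6 and overlap them for Ear7; each panel has its own axis range.

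The Ear differences kept their size when the arrays were processed in other ways. Under normexp background correction, quantile normalization, median centring, the authors' deposited table, a replicate block, other filters and the removal of any 1 lung, Ear1 stayed between -1.23 and -0.98 and Ear2 between -1.1 and -0.88. Ear10 stayed between -1.08 and -0.8, Ear11 between -1.03 and -0.84, Ear12 between -1.36 and -1.1 and Ear6 between -1.18 and -0.78. Ear7 ranged from -1.32 to 0.08, both with 1 lung left out. The replicate block and the filters could not move any of these differences, since they return the same value for each probe. The deposited table gave nearly the same values as quantile normalization (Ear1 -1.07 and Ear2 -0.94 in both), so it is not a separate check. The number of Ear probes past the adjusted threshold was less stable. It was 0 with the processed signal and 4 with normexp correction, where 1.25% of all probes were called lower. It was 3 with median centring (0.275% of all probes), 6 with no filter (2.44%) and 3 with the filter on all 8 arrays (0.386%).

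**Figure D2:**
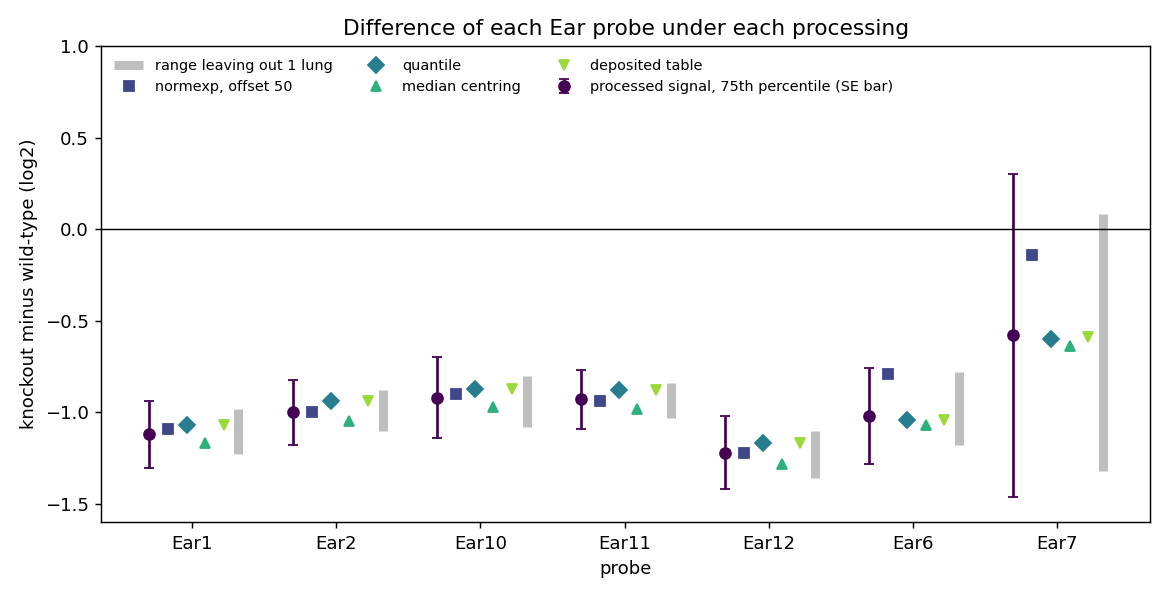
Knockout minus wild-type difference (log2) of each tested Ear probe under the processed-signal setting with its SE, 4 other ways of processing the arrays, and the range when 1 lung is left out. The markers for quantile normalization and the deposited table nearly coincide. The markers for Ear1, Ear2, Ear10, Ear11, Ear12 and Ear6 lie below -0.7. Those for Ear7 lie between -0.64 and -0.14, and its range with 1 lung left out runs from -1.32 to 0.08.

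With the genotype means taken out, the brighter Ear probes varied together over the 8 lungs. For Ear1, Ear2, Ear10, Ear11 and Ear12, knockout lungs 1 and 4 were the 2 lowest in every case. Pearson r of the deviations from the group means, over the 8 lungs, ran from 0.42 to 0.94 in the 10 pairs of these probes, with a median of 0.865. Ear6 was not part of that pattern, with r between -0.31 and -0.12 against the same 5 probes. The r pools both genotypes and was not taken in each alone. In wild-type lungs the order was less alike, with lung 4 the lowest for Ear10 (2.38) and the highest for Ear12 (3.38). These correlations describe 8 lungs that share array scaling and carry no p-value.

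The pairs differed in what their probes can share. Ear2 and Ear12, whose probes lie 160 bases apart, had r of 0.91 and may be readings of 1 gene. Ear1 and Ear2 had r of 0.94, and the files list the Ear2 probe under transcripts of both. Ear1 and Ear11 also had r of 0.94. Ear10 and Ear12 had the lowest r of the 10 pairs, 0.42, and wild-type lung 4 was the lowest wild-type lung for Ear10 and the highest for Ear12. Ear2 and Ear6 had r of -0.28. How far a common transcript enters these values was not tested.

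**Figure D3:**
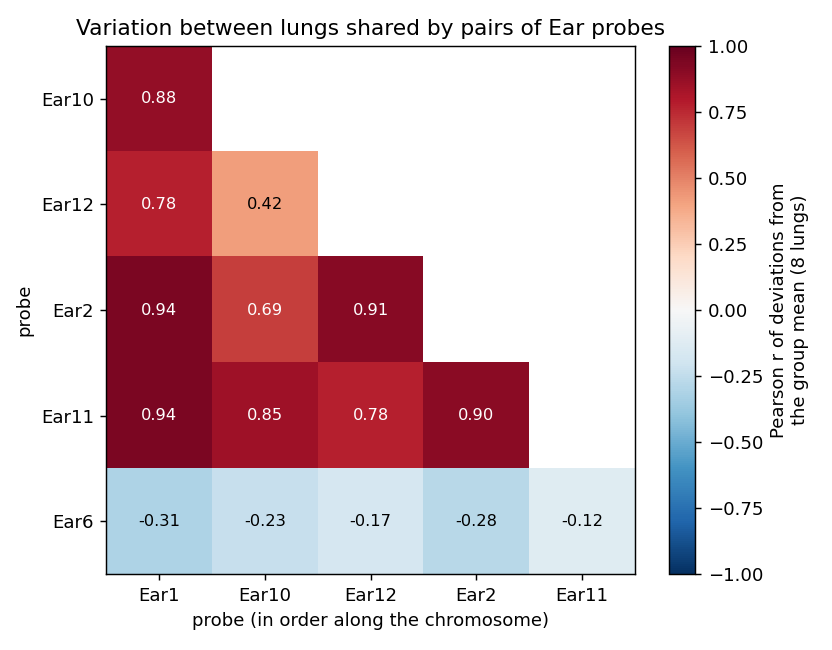
Pearson r of the deviations from the group mean over 8 lungs for each pair of the 6 Ear probes that were well above background on all arrays, with probes in chromosome order on both axes and colour for r. The 10 pairs without Ear6 lie between 0.42 and 0.94, and the pairs with Ear6 between -0.31 and -0.12.

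The gene starts of the family are near copies too. The 250 bases before the annotated start were available in RefSeq (GRCm38.p6) for Ear1, Ear2, Ear10, Ear5, Ear11 and Ear6 among the array names, and for Ear14. The promoters of 4 are shown, for Ear1 and Ear2 as the closest pair, for Ear11 as a more distant member that was also lower, and for Ear5, whose probe was not above background. Capitals mark a 13-base run found in all 6 promoters of the array names and not in that of Ear14.
Ear1 promoter, chr14:43819640-43819889 (minus strand): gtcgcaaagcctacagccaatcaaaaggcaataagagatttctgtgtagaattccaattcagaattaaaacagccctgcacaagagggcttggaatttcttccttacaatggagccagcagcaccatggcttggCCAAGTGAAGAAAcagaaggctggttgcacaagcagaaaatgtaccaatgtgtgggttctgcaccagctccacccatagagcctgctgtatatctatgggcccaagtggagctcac
Ear2 promoter, chr14:44102404-44102653 (plus strand): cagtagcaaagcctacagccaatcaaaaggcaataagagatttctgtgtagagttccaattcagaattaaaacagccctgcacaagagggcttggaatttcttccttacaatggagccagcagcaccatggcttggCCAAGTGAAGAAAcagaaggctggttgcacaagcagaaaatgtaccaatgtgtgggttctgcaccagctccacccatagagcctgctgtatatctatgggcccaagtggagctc
Ear11 promoter, chr14:51256113-51256362 (minus strand): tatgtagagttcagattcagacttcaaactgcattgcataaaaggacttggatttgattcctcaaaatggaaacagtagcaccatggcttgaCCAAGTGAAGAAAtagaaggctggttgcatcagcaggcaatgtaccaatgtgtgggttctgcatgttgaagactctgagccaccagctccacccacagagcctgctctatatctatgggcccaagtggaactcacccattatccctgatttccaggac
Ear5 promoter, chr14:51162010-51162259 (plus strand): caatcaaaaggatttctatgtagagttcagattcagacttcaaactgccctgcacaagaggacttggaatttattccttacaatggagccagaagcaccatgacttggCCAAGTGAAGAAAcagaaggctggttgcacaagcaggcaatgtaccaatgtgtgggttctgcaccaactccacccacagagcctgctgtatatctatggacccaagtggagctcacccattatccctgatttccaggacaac
The Ear1 and Ear2 promoters were identical at 246 of 248 aligned positions (99.2%). Ear1 matched Ear10 at 93.5%, Ear5 at 89.3%, Ear6 at 85.1% and Ear11 at 78.9%. Ear5, not above background in any lung, thus has a promoter closer to that of Ear1 than Ear11 has. Ear14 matched the others at 53.7% to 56.3%, but its 250 bases open with the sequence that ends the Ear5 promoter. They do not cover the matching stretch, so the low match and the missing 13-base run do not show a diverged promoter.

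Short motifs were searched on both strands of these 250 bases. CCAAT, the core of the CCAAT box, was found in the 6 promoters of the array names and in 33.8% of 32851 mouse promoters of the same length. TTGCNNAA, a pattern bound by C/EBP factors of myeloid cells, was found in Ear1, Ear2, Ear10, Ear5 and Ear11 and in 9.56% of all promoters. GAGGAA, the core bound by the macrophage factor PU.1, was found in Ear11 and in 23.3% of all. The letters AGATAA, bound by blood-cell factors of the GATA family, were found in Ear14, whose 250 bases cover a different stretch, and in 9.99% of all. The related letters TGATAA (7.94% of all), the TATA box letters TATAAA (12.4% of all) and the E-box CACGTG (6.02% of all) were in none of the 7. Since the promoters are copies of each other, their matches are not separate observations. A match gives letters and no binding.

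Genes outside the family were set beside Ear1 and Ear2 by the likeness of their deviations within the genotypes, over 8 lungs and all tested genes with an official symbol. For Ear1 the most alike was Ms4a7, a membrane protein gene of macrophages, with r of 0.985. Ms4a7 had a difference of -0.62 ± 0.182 (SE; adjusted p = 0.108, limma). The next were Taar4 (0.966), Nmt2 (0.966), Dcstamp (0.964, Tm7sf4 in the files) and Fev (0.962). Of these, Taar4 was well above background on 3 wild-type and 2 knockout arrays and Dcstamp on 3 and 0, so their r rests partly on background readings. For Ear2 they were Btla (0.986), Rab7b (0.986, 5430435G22Rik in the files), Lct (0.973), Trbv1 (0.93, Gm6273 in the files) and Txndc12 (0.928). Lct was well above background on 3 wild-type and 0 knockout arrays and Trbv1 on 4 and 2, with the same limit. Rab7b, a small GTPase of late endosomes in myeloid cells, had a difference of -0.62 ± 0.112 (adjusted p = 0.0609, limma). Btla, a lymphocyte inhibitory receptor, had -0.03 ± 0.23. The search ran over 24464 genes with 8 lungs each, and no function is read from it.

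The remaining ribonuclease A genes were compared next, from a list without the Ear names. This list and those below were chosen with earlier results of these data known, so their p-values are given as descriptions. Of 16 listed, 2 are now names of Ear probes, 7 were tested and 0 of these passed an adjusted p of 0.05 in limma, where 0.0613% of all genes did. Their median difference was -0.49, against -0.03 over all genes, with 6 lower and 1 higher, where 54.4% of all genes were lower. At an unadjusted p under 0.05 there were 3 lower and 1 higher, beside 13.4% and 10.1% of all genes. Rnase6, an antimicrobial ribonuclease of monocytes and macrophages, had -1.15 ± 0.197 (adjusted p = 0.0598). It lay between -1.84 and -1.2 in wild-type and between -2.97 and -2.18 in knockout lungs, so the groups did not overlap. Ang3 and Ang4, of the angiogenin branch, had -0.6 ± 0.195 (adjusted p = 0.129) and -0.4 ± 0.15 (0.167). Rnase10, a gene of the male reproductive tract, was 0.31 ± 0.075 higher (adjusted p = 0.0804). The mean of the list was between -1.18 and -0.76 in wild-type lungs and between -1.57 and -1.39 in knockout lungs. Its difference was -0.45 ± 0.098 (SE; two-sided exact permutation p = 0.0286, which is the lowest value a design of 4 and 4 lungs can give, and 0.172 adjusted over 12 lists). Rnh1, the cytosolic inhibitor that binds ribonucleases of this superfamily, had 0.0 ± 0.089 (adjusted p = 0.992).

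Markers of the cells that could carry Ear transcripts were measured in the same lungs. In whole tissue, fewer cells of a type and less RNA per cell cannot be told apart. Over all tested genes, 54.4% had a lower mean in knockout lungs and 0.0613% passed the adjusted threshold in limma. These shares stand beside each list below. Of 14 eosinophil markers, 11 were tested, 0 passed an adjusted p of 0.05 in limma, and 10 had a lower mean in knockout lungs, with a median of -0.19. At an unadjusted p under 0.05, 2 were lower and 0 higher, beside 13.4% and 10.1% of all genes. Their mean level was between -1.03 and -0.76 in wild-type and between -1.38 and -1.02 in knockout lungs, which overlap (exact permutation p = 0.0571, adjusted 0.228). Of the defining markers, Epx, the eosinophil peroxidase, was not well above background on any of the 8 arrays, nor was the granule gene Prg3. Prg2, the major basic protein, had a difference of 0.39 ± 0.435 (adjusted p = 0.606). The eotaxin receptor Ccr3 had -0.34 ± 0.166 (0.259), the interleukin-5 receptor Il5ra -0.27 ± 0.185 (0.404) and the surface lectin Siglecf (Siglec5 in the files) -0.49 ± 0.336 (0.4). Gata1, an eosinophil and erythroid transcription factor, had -0.83 ± 0.159 (0.0626), and Adgre4 (Emr4 in the files) -1.61 ± 0.372 (0.0755). The groups did not overlap for Gata1 or Adgre4, a separation in that direction found in 9.24% of all tested probes.

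Alveolar macrophage markers as a list did not separate the genotypes. All 17 were tested, with 10 lower and 7 higher and a median of -0.05. Their mean level ran from 1.76 to 2.56 in wild-type and from 1.82 to 2.40 in knockout lungs (exact permutation p = 0.8, adjusted 0.873). The scavenger receptor Marco had -0.25 ± 0.22, Car4 -0.03 ± 0.166 and the transcription factor Pparg 0.13 ± 0.123. Itgax, which encodes CD11c, had -0.83 ± 0.17 (adjusted p = 0.0634, limma), and Fabp1 -1.47 ± 0.27 (0.0617), with no overlap between the groups for either gene. In the other direction, Plet1 (1600029D21Rik in the files) was 0.68 ± 0.17 (0.0815), with no overlap between the groups, and the lipid-binding protein gene Fabp4 1.44 ± 0.854 (0.334). The lipid-droplet gene Cidec had the highest difference of the list, 2.29 ± 1.131 (0.26). With limma, 0 of the 17 passed the adjusted threshold. Before adjustment, a p under 0.05 was found for 3 lower genes and 1 higher gene, beside 13.4% and 10.1% of all genes.

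The list for monocytes and interstitial macrophages was lower in the same lungs as the Ear probes. Of its 17 tested genes, 16 had a lower mean, 13 at an unadjusted p under 0.05 (13.4% of all genes were lower at that level), and 0 passed after adjustment in limma. The median was -0.63. The mean level lay between 2.89 and 3.21 in wild-type lungs and between 2.15 and 2.71 in knockout lungs, with no overlap (difference -0.7 ± 0.139; exact permutation p = 0.0286, adjusted 0.172). As the list was chosen with earlier results of these data known, its counts and p are descriptions. Plac8 had -0.84 ± 0.161 (adjusted p = 0.0626), the high-affinity IgG receptor Fcgr1 -1.03 ± 0.215 (0.0652), Cd300e -1.09 ± 0.242 (0.0721) and Treml4 -1.15 ± 0.255 (0.0728). Knockout lungs 4 and 1 had the lowest values of this list, as they had for the bright Ear probes. The list read 2.15, 2.26 and 2.32 in knockout lungs 4, 1 and 3, so lungs 1 and 3 were close. Its part in the Ear differences was not tested.

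**Figure D4:**
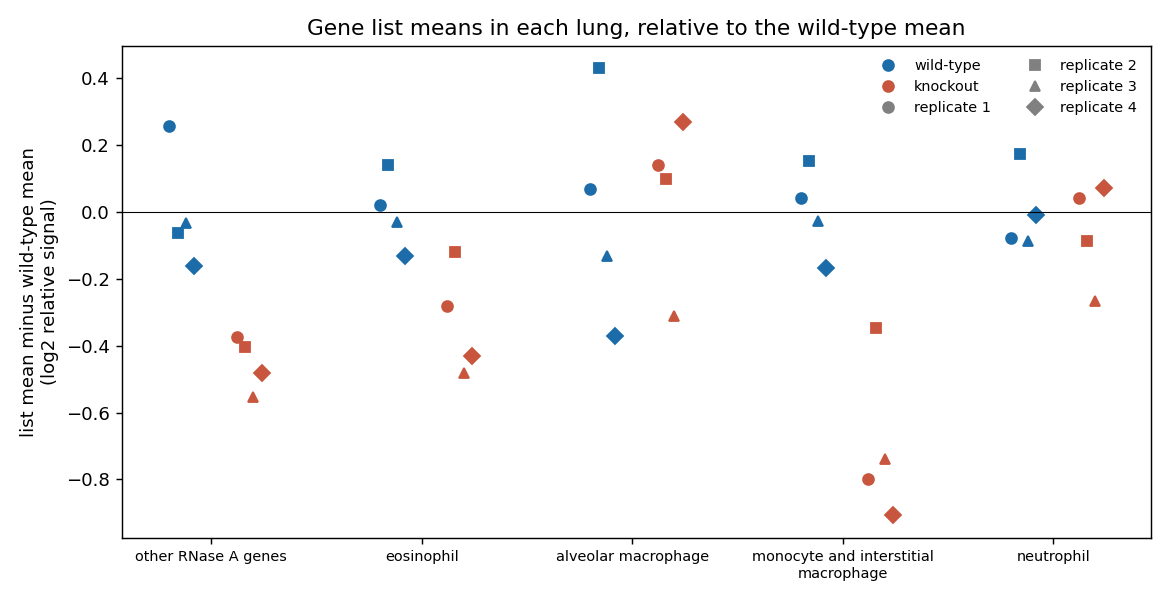
Mean log2 relative signal of 5 gene lists in each lung, minus the wild-type mean of the list, with colour for genotype and symbol for replicate. Knockout lungs lie below all wild-type lungs for the other ribonuclease A genes and for the monocyte and interstitial macrophage markers, and overlap them for the eosinophil, alveolar macrophage and neutrophil markers.

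Cytokines and receptors that recruit or sustain eosinophils and macrophages were compared as well. Of the 12 tested genes of that list, 8 were lower, 4 higher and 0 passed after adjustment in limma, with a median of -0.24. An unadjusted p under 0.05 was found for 4 lower genes and 1 higher gene, beside 13.4% and 10.1% of all genes. Il5 and Il13 were not well above background. The shared beta chain of the interleukin-5, interleukin-3 and GM-CSF receptors, Csf2rb, had -0.79 ± 0.22 (adjusted p = 0.0992), and its relative Csf2rb2 -0.78 ± 0.207 (0.0913). Csf2, the GM-CSF ligand, had -0.24 ± 0.253. Il1rl1, the interleukin-33 receptor, had 0.68 ± 0.136 (0.0626). The eotaxins Ccl11 and Ccl24 had 0.56 ± 0.36 and 0.04 ± 0.581.

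Alternative-activation genes of macrophages had 7 lower and 6 higher of 13, with a median of -0.11. Among them and the alveolar macrophage list, the chitinase-like genes Chil3 (Chi3l3 in the files) and Chil4 (Chi3l4) had -0.56 ± 0.176 (adjusted p = 0.119) and -0.91 ± 0.255 (0.0992). Neutrophil markers had 11 lower and 9 higher of 20, with a median of -0.13 and a list difference of -0.06 ± 0.099. Of them, Cxcr2, a chemokine receptor, had -1.1 ± 0.24 (0.0703). Mast cell and basophil markers had a median of 0.23 and a list difference of 0.08 ± 0.357.

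Markers of tissues next to the air spaces also varied between lungs. Cardiac muscle markers had a median of 1.43 with 12 of 13 higher in knockout lungs. Their list mean ranged widely, from -0.73 to 3.17 in wild-type and from 0.6 to 3.54 in knockout lungs. The list difference was 1.34 ± 1.082 (SE), and the groups overlapped. Club cell markers, which label secretory cells of the airway, had a median of 0.69 with 8 of 9 higher, and alveolar epithelial markers a median of -0.36 with 10 of 13 lower. Over all 12 lists, 139 genes were tested and 0 passed an adjusted p of 0.05 in limma, where 0.0613% of all genes did. Before adjustment, 35 were lower and 7 higher at a p under 0.05, beside 13.4% and 10.1% of all genes. The part of these tissues in the Ear differences was not tested.

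The quality of the arrays and the targeted gene bear on every value above. Between 61.5% and 65.3% of spots were well above background on wild-type arrays and between 58.1% and 61.6% on knockout arrays. All 8 arrays were on 1 slide, with wild-type samples in 1 row of it and knockout samples in the other, so position on the slide and genotype cannot be told apart. Ggps1 itself did not separate the groups: its brightest probe read 1.26 to 1.40 in wild-type and 1.22 to 1.32 in knockout lungs, a difference of -0.06 ± 0.078 (adjusted p = 0.608, limma). Its other probes had differences of -0.12 ± 0.159 and 0.19 ± 0.096 (SE), also with overlap. The labels do not name the exon deleted in these mice, so these probes may lie outside the deleted stretch and then check nothing. Across the 24464 genes, 8 (0.0327%) were called higher and 7 (0.0286%) lower in the knockout by limma, and 13 and 23 with arrays centred on their median.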

How the data were processed

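Per the labels' protocols, lung RNA was labelled with Cy3 and hybridised to one-colour Agilent arrays, 1 per mouse. Per the file headers, Agilent Feature Extraction 10.7.1.1 quantified the spots; the deposited intensity values include a background-subtracted processed signal. The authors' deposited table holds log2 values with a median of 5.63 in every column. These values correlated at 0.9991 or more with the log2 processed signal, and their centring is taken from the files. Gene calls from that table (7 higher and 6 lower) were as many as under quantile normalization, and its Ear differences were nearly the same. The deposited table and quantile normalization are thus not separate checks. Control and outlier spots were left out, 21 probes had no usable spot, and log2 processed signal was centred on the 75th percentile of each array.

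Probes passing the background flag on at least 3 arrays of either genotype were fitted with limma 3.58.1 in R 4.3.3, per probe and per gene (brightest probe), with all 8 samples, no covariate and Benjamini-Hochberg adjustment at 0.05. In that fit on simulated data over 24464 genes, changes of 0.5, 1, 2 and 4 log2 units were called in 32%, 76%, 92% and 98% of cases. The simulation changed many more genes than the 15 called in the real data, which loosens the adjusted threshold. Its noise was normal and independent between genes. These shares may therefore overstate what the fit can call in these lungs. Gene names were updated by accession for 26574 probes, by symbol for 2601 and by synonym for 492, and 25993 kept the name in the files. List means were compared by exact permutation over samples. The fold is 2 to the power of the log2 difference.

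The Ear members and all gene lists were chosen with earlier results of these data known. Named genes were every member, the 5 genes most like Ear1 and Ear2, the genes that define a cell type, and up to 4 genes of the smallest p per list; a few others (Ccl11, Ccl24, Csf2, Epx, Prg3, Il5, Il13, Cidec) were named after their values were seen. Nothing in the labels says that mice were pooled, and p-values measure the spread between these 8 samples. Alternatives were normexp with an offset of 50, quantile normalization, median centring, the deposited table, the mean of a gene's probes, no filter, a filter on all 8 arrays, a replicate block and leaving out each lung. Protein sequences, and alignment of the probes to transcripts, were not analysed here.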

Additional observations from a re-analysis of the deposited data

Results flagged for a closer look

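In 168 groups of 4 lungs checked, 9 held a lung far from the other 3 by the gap to the nearest lung as a share of the range. Chance gives about 1 in 20 groups. No group of an Ear probe was among them. The values are log2 relative signals. The markers measured beside the Ear probes differed in wild-type lungs: Gata1 was -1.18 in wild-type lung 3 (the others -0.99 to -0.95), Csf2rb2 was 5.39 in wild-type lung 2 (4.69 to 4.8) and Cd300e was 1.23 in wild-type lung 4 (1.66 to 1.69). In knockout lungs, Fabp1 was -2.78 in lung 1 (-3.68 to -3.59), Chil3 (Chi3l3 in the files) was 7.2 in lung 4 (6.7 to 6.74) and Treml4 was 1.21 in lung 2 (0.16 to 0.23). The mast cell protease Tpsb2 was -2.39 in wild-type lung 1 (-2.04 to -1.99), Lct was -6.01 in wild-type lung 3 (-5.05 to -4.87), a reading below the lowest signal well above background on that array (-5.495), and the mean of the ribonuclease inhibitor and RNase T2 list was 4.82 in knockout lung 4.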

How the results depend on the processing

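Each of the 16 alternatives left a lower knockout mean in the 6 Ear probes whose groups were apart, and their groups stayed apart, while Ear7 ranged from -1.32 (without wild-type replicate 4) to 0.08 (without knockout replicate 3). For those 6 probes, only normexp, quantile normalization, median centring and the deposited table could have changed this. The deposited table gave nearly the same differences as quantile normalization and is not a separate check. Leaving out a lung cannot make separate groups overlap. The replicate block, the filters and the mean of a gene's probes leave the difference of each Ear probe as it was. Of the Ear probes, 4 passed an adjusted p of 0.05 with normexp (1.25% of all probes were called lower), 3 with median centring (0.275%), 6 with no filter (2.44% of 55660), 3 with the filter on all 8 arrays (0.386% of 29785), and 0 otherwise. Calls over all features moved more. Genes called higher went from 8 to 229 (normexp), 13 (median centring), 4 (mean of a gene's probes), 2721 (no filter) and 59 (all 8 arrays), and those lower from 7 to 284, 23, 785 and 68 with normexp, median centring, no filter and all 8 arrays. Probes called higher went from 11 to 328, 47, 5395 and 103 under those 4 settings, and those lower from 11 to 423, 93, 1357 and 115. Leaving out each lung gave 1 to 11 genes higher, 0 to 12 lower, 0 to 16 probes higher and 0 to 16 lower; without knockout replicate 3 these 4 counts stayed within 1.5 times of the values with all lungs, and without any other lung at least 1 did not. List genes called higher went from 0 to 2 (normexp), 2 (no filter) and 1 (all 8 arrays), and those lower from 0 to 7 (normexp) and 13 (no filter). Of the list means, that of the ribonuclease inhibitor and RNase T2 turned from 0.02 to -0.03 with median centring and -0.02 with the mean of a gene's probes, and leaving out each lung gave -0.02 to 0.07; the same range was -0.07 to 0.19 for alveolar macrophages, -0.11 to 0.01 for neutrophils and -0.18 to 0.35 for mast cells. The cause was not tested in any case.

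Whether replicate numbers pair the lungs is not known. Deviations of same-numbered lungs correlated at 0.129, 0.47, 0.012 and -0.292, and those of other pairs between -0.465 and 0.293. These few values cannot settle it, and same-numbered arrays shared a column of the slide. With the replicate block, 12 genes were called higher and 34 lower, and 2 probes higher and 3 lower. The Ear differences keep their values in that fit by design, and 0 were called. Precision is limited by 4 lungs per genotype and by 1 spot per Ear probe. Signal near background also limits Ear4 and Ear5, and Ear7 in wild-type lung 4 and knockout lung 3.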
